A study of Mus musculus with 6 samples.

Results

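The E2F family (E2f1 to E2f8), Mybl2 and Foxm1 encode transcription factors that drive or restrain the cell cycle, and their expression was examined in N2A cells, a mouse neuroblastoma line. These 10 genes were taken by name, and each was represented by an array probe annotated with that symbol alone. Where a gene had several such probes, as E2f3 did, the one with the highest mean over the 6 arrays was used. All 10 were measured, out of 19938 genes with a probe of their own. There were 3 arrays from cells transfected with a Pbcas4 shRNA and 3 from cells transfected with a scramble control. The shRNA was directed against Pbcas4, a transcribed unitary pseudogene of human BCAS4, and the oligos that the study lists hold 1 hairpin against it. The control was a hairpin of permuted sequence, and both were expressed from a U6 promoter by transient transfection, so that each culture may also hold untransfected cells. Cells were plated 24 h before transfection, and RNA was taken 72 h after it. No probe was annotated with Pbcas4, so that the array does not check the knockdown itself. The values are log2 expression per probe on Affymetrix Mouse Gene 1.0 ST arrays, as normalized by the authors, and each "log2 difference" below is the mean of the shRNA arrays minus the mean of the scramble arrays. The 10 genes were chosen by name with differences between these arrays already known, and the E2f3 probe was selected on its mean, so that their differences are given as a description.

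E2F proteins bind DNA, most of them together with a DP partner, at the promoters of genes for S phase entry. E2F1, E2F2 and E2F3 activate these genes. E2F4 and E2F5 mostly repress them while bound to the pocket proteins, which are the retinoblastoma protein and its relatives. E2F6 represses without pocket proteins, and the atypical members E2F7 and E2F8 bind DNA without a DP partner and shut down the same genes later in S phase. B-MYB, the product of Mybl2, and FOXM1 join the MuvB complex to turn on genes of G2 and mitosis, and MuvB with E2F4 or E2F5 and a pocket protein forms the repressive DREAM complex of resting cells. Proliferating cells transcribe E2f1, E2f2, E2f7, E2f8, Mybl2 and Foxm1 periodically, in part because these genes are themselves E2F targets, and high activity of E2F target genes is known from aggressive neuroblastoma.

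To show the sequence through which E2F proteins act on their own family, the promoters of these genes were searched for E2F words. RefSeq promoters of build GRCm38.p6, from 250 bases before to 50 bases after an annotated start, were held for 7 of the 10 genes, with 9 promoters in all. E2f4, E2f5 and Foxm1 had no promoter among them and were not searched. The consensus was searched on both strands as TTTNNCGC, with C or G at each N. It was found in 3 of the 9 promoters (33.3%) and in 744 of all 32851 promoters (2.26%). A shorter form was searched as TTNNCGN, again with C or G at each N, and any hit of the consensus is also a hit of it. It was found in 5 of the 9 promoters (55.6%) and in 17.8% of all promoters. For each gene with a match, 1 window of 30 bases follows with the matched word in capitals, on the strand of the gene. The windows carry the consensus where the gene had it, and otherwise the shorter form.
E2f2 (chr4:136172294-136172323, plus strand): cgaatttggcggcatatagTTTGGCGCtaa
E2f3 (chr13:29986056-29986085, minus strand): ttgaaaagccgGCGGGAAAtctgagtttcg
E2f7 (chr10:110745230-110745259, plus strand): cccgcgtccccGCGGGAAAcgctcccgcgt
E2f8 (chr7:48881689-48881718, minus strand): agaggcgcggaTTGGCGCgcggggccccgg
Mybl2 (chr2:163054609-163054638, plus strand): cgccgacgcacTTGGCGGgagataggaaag

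In E2f2, E2f3 and E2f7 the capitals mark the consensus, read on the opposite strand in E2f3 and E2f7. In E2f8 and Mybl2 they mark the shorter form. The Mybl2 word began 15 bases before the annotated start, that of E2f3 11 bases before it, that of E2f8 111 bases before it and that of E2f7 198 bases before it, whereas the E2f2 word lay 40 bases after the start. The other E2f2 and E2f3 promoters and the promoters of E2f1 and E2f6 held none of these words in the window. A second word, TTTGAA, the CHR element of genes bound by MuvB, was found on either strand in 1 promoter each of E2f2, E2f3 and E2f8 (3 of 9, or 33.3%, against 17.9% of all promoters). As a comparison, the CHR word was held by 70.4% of 27 promoters of G2/M genes and by 8% of 25 promoters of G1/S genes, while the E2F consensus was held by 3.7% and 40% of them. A match is a description of letters in this window and does not show that a factor binds there.

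The 6 arrays had medians between 7.75 and 7.86. Scramble replicate 1 stood apart from the other scramble arrays. Over all probes its correlation was 0.988 with scramble replicate 2 and 0.987 with scramble replicate 3, against 0.990 to 0.993 with the shRNA arrays. ShRNA replicate 1 in turn correlated at 0.992 with scramble replicate 1, against 0.989 and 0.993 with shRNA replicates 2 and 3. Scramble replicates 2 and 3 correlated at 0.990 to 0.991 with shRNA replicates 2 and 3. The values of scramble replicate 1 are given apart from those of scramble replicates 2 and 3. Differences, limma calls and list medians were also computed without it. No test was run on that division, which was seen in the data and is no group of the study. With no probe for Pbcas4, the label of this array cannot be checked against the targeted gene. E2f5 was at 10.69 in this array, nearer to the other scramble arrays. Chgb, a secretory granule protein, was at 13.50 in it. For Chgb the shRNA arrays were at 12.55 to 12.76, and scramble replicates 2 and 3 at 13.69 to 13.79. These values cannot check the label either, because both genes were among those best separated under the given labels. E2f5 had the lowest limma adjusted p of the transcription factors examined (0.359). That of Chgb (0.297) equalled the lowest over all probes. Of the neuroblastoma markers measured, Phox2a and Hand2, transcription factors of the sympathetic lineage, lay between 11.01 and 11.39 and between 12.55 and 12.93 in all arrays. Gata3, another transcription factor among these markers, was at 11.04, 10.21 and 10.25 in the shRNA arrays, against 10.78 to 11.15 in the scramble arrays (log2 difference -0.50). Most of the other markers of the line lay lower by mean with the shRNA, among them Dbh, Th and Chgb with log2 differences of -1.34, -1.08 and -1.01. The constructs overlapped for Dbh, with shRNA replicate 1 at 11.29 and scramble replicate 3 at 11.01, but not for Th and Chgb.

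By mean, 9 of the 10 genes lay higher with the Pbcas4 shRNA than with the scramble control, at a median log2 difference of 0.37, against 51% of all genes and a median of 0.0031 over all genes. With limma, called at an adjusted p under 0.05 and a log2 difference over 0.5 in size, 0 of the 10 genes and 0 of the 35556 probes passed (0%). The lowest adjusted p among the 10 was 0.359. The study itself reports differentially expressed genes between these constructs, most of them lower, and why its result differs was not tested. At an unadjusted p under 0.05, 4 of the 10 were higher and 0 were lower, against 6.22% and 5.46% of all genes, and these were Mybl2, E2f7, E2f8 and E2f5. The same 4 genes had a log2 difference over 0.5 (2.67% of all genes) and had all shRNA values above all scramble values (9.13% of all genes). In bulk RNA, a change in the share of dividing cells and a change of RNA per cell cannot be told apart.

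**Figure D1:**
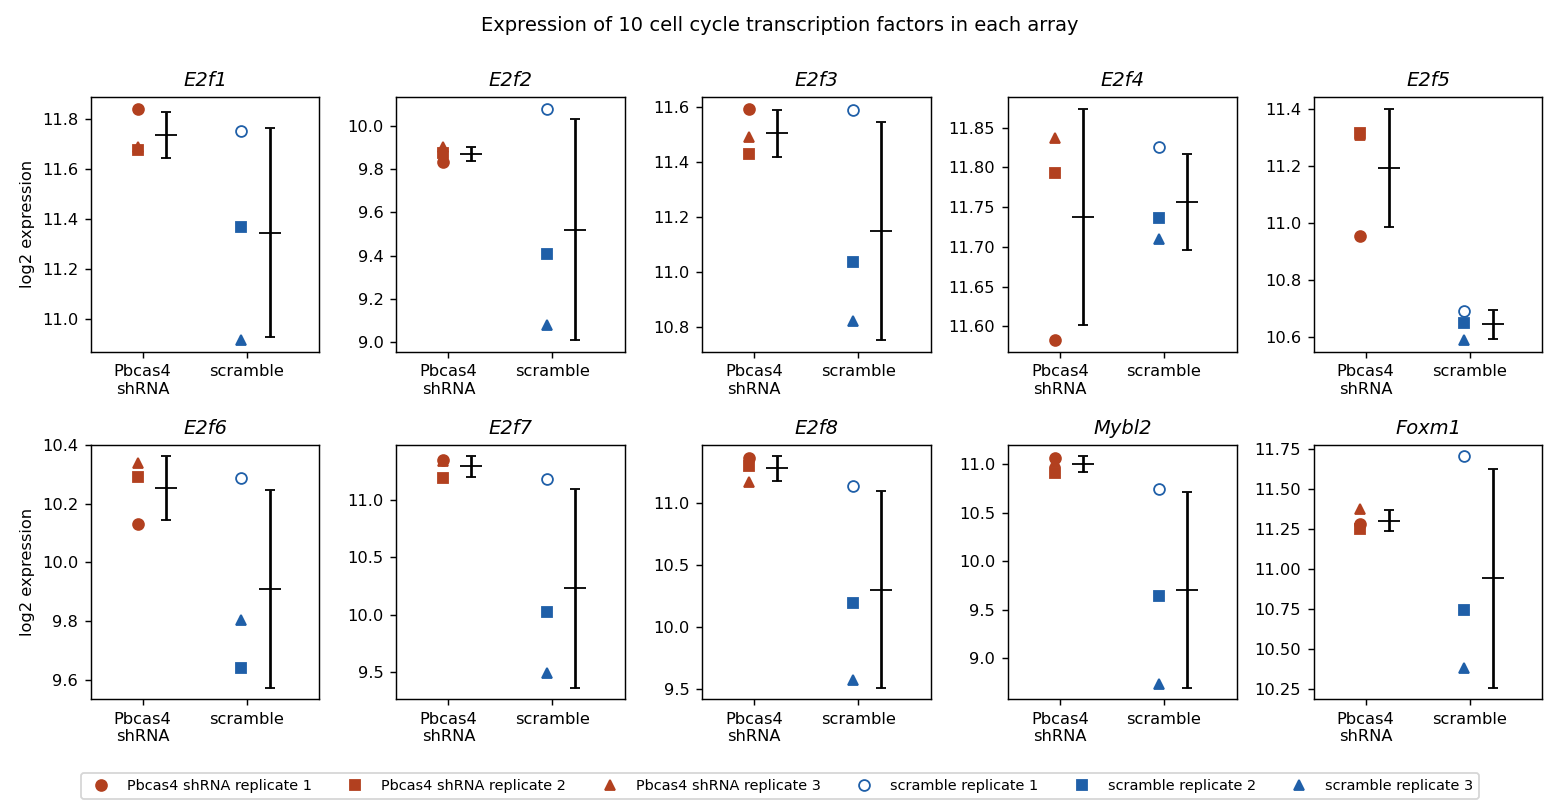
Normalized log2 expression (y axis, a scale of its own in each panel) of the 10 transcription factors in the 3 Pbcas4 shRNA arrays and the 3 scramble arrays of N2A cells. Symbols are single arrays, with scramble replicate 1 as an open circle, and bars are the mean and SD of 3 arrays. For E2f5 the 3 scramble arrays lie together at 10.59 to 10.69, below the shRNA arrays, whereas for Mybl2 they spread over 8.73 to 10.75.

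Mybl2 had the widest difference. It encodes B-MYB, the partner of MuvB in late S phase and G2. It was at 11.07, 10.91 and 11.03 in the shRNA arrays, against 10.75 in scramble replicate 1 and 9.64 and 8.73 in scramble replicates 2 and 3. The constructs did not overlap, but scramble replicate 1 lay 0.17 below the lowest shRNA array and 1.10 above scramble replicate 2. The means were 11.00 ± 0.08 and 9.71 ± 1.01 (SD, n = 3 each), a log2 difference of 1.30 (standard error 0.46, 95% interval 0.19 to 2.40), which is a factor of 2.46. This was the highest difference of the 19938 genes (limma adjusted p = 0.443). It was 1.82 without scramble replicate 1 and 0.81 without scramble replicate 3.

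The atypical repressors E2f7 and E2f8 followed. E2f7 was at 11.35, 11.19 and 11.34 in the shRNA arrays, against 11.18 in scramble replicate 1 and 10.02 and 9.49 in scramble replicates 2 and 3. Its constructs were parted by 0.0080 alone, which is less than the SD of the shRNA arrays (0.09). The log2 difference was 1.06 (standard error 0.40, 95% interval 0.11 to 2.01), the 15th highest of all genes, and it was 1.54 without scramble replicate 1 and 0.69 without scramble replicate 3. E2f8 was at 11.36, 11.29 and 11.17 in the shRNA arrays, against 11.14 in scramble replicate 1 and 10.19 and 9.57 in scramble replicates 2 and 3. It too had scramble replicate 1 just below the shRNA arrays, by 0.031. The log2 difference was 0.97 (standard error 0.36, 95% interval 0.10 to 1.84), the 38th highest, and it was 1.39 without scramble replicate 1 and 0.61 without scramble replicate 3. The limma adjusted p was 0.461 for both.

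The activators E2f1, E2f2 and E2f3 differed less, and their arrays overlapped. E2f1 was at 11.84, 11.68 and 11.69 in the shRNA arrays, against 11.75 in scramble replicate 1 and 11.37 and 10.92 in scramble replicates 2 and 3 (log2 difference 0.39, 95% interval -0.10 to 0.88). Scramble replicate 1 lay inside the shRNA range. E2f2 was at 9.84, 9.87 and 9.90 in the shRNA arrays, against 10.08 in scramble replicate 1 and 9.41 and 9.08 in scramble replicates 2 and 3 (log2 difference 0.35, 95% interval -0.23 to 0.93). Here scramble replicate 1 was the highest of all arrays. E2f3 was at 11.60, 11.43 and 11.49 in the shRNA arrays, against 11.59 in scramble replicate 1 and 11.04 and 10.82 in scramble replicates 2 and 3 (log2 difference 0.35, 95% interval -0.12 to 0.83). At this probe scramble replicate 1 lay at the top of the shRNA range. At the other E2f3 probe it (9.99) was above the shRNA arrays (9.76 to 9.86) and scramble replicates 2 and 3 (9.41 and 9.33) were below them, with a log2 difference of 0.24. Leaving out scramble replicate 3 lowered the 3 differences to 0.17 for E2f1, 0.13 for E2f2 and 0.19 for E2f3, and leaving out scramble replicate 1 raised them to 0.59, 0.63 and 0.58. Foxm1, whose product is the forkhead activator of mitotic genes, had the same pattern as E2f2. It was at 11.28, 11.25 and 11.38 in the shRNA arrays, against 11.71 in scramble replicate 1 and 10.74 and 10.38 in scramble replicates 2 and 3. Scramble replicate 1 was again the highest array. The log2 difference was 0.36 (95% interval -0.40 to 1.12), or 0.74 without scramble replicate 1 and 0.078 without scramble replicate 3.

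**Figure D2:**
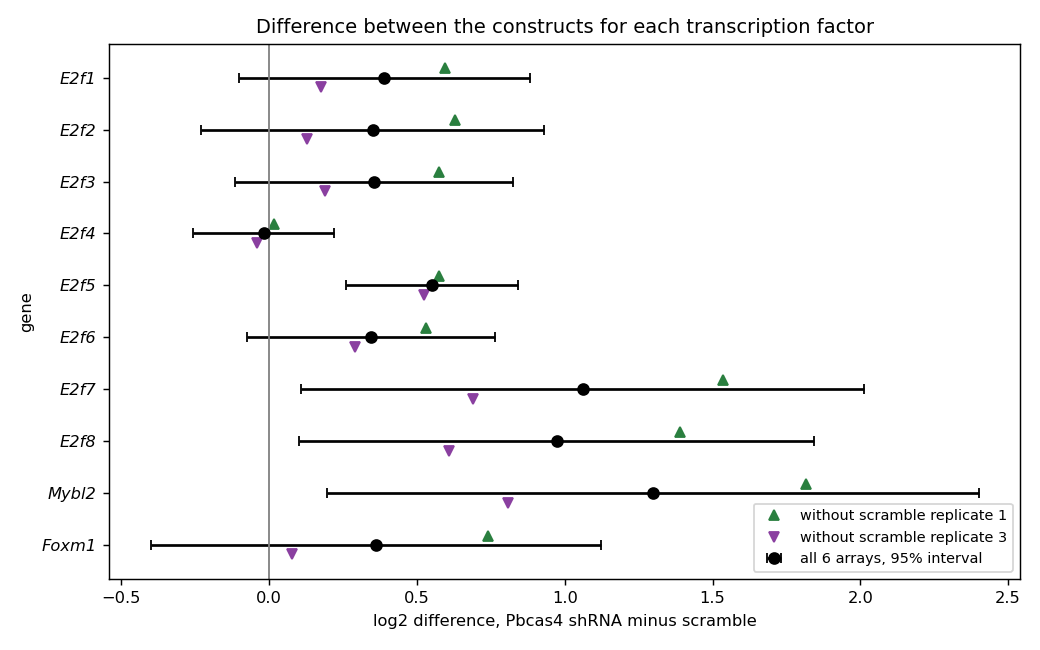
Log2 difference between the constructs (x axis, Pbcas4 shRNA minus scramble) for each gene (y axis). Circles and bars are limma's estimate and 95% interval from all 6 arrays, upward triangles the estimate without scramble replicate 1 and downward triangles that without scramble replicate 3. The estimate for Mybl2 spans 0.81 to 1.82 over these fits and that for E2f5 spans 0.52 to 0.57.

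Of the repressors that bind pocket proteins, E2f5 had a gap between the constructs and E2f4 had none. E2f5 was at 10.95, 11.32 and 11.31 in the shRNA arrays, against 10.69 in scramble replicate 1 and 10.65 and 10.59 in scramble replicates 2 and 3. It was the only one of the 10 genes for which scramble replicate 1 lay nearer to the other scramble arrays than to the shRNA arrays. The gap between the constructs was 0.26, and the scramble arrays spanned 0.10. The means were 11.19 ± 0.21 and 10.64 ± 0.05 (SD, n = 3 each), a log2 difference of 0.55 (standard error 0.12, 95% interval 0.26 to 0.84, limma adjusted p = 0.359), which is a factor of 1.46. Leaving out scramble replicate 1 gave 0.57 and leaving out scramble replicate 3 gave 0.52. E2f4 was at 11.58, 11.79 and 11.84 in the shRNA arrays, against 11.83 in scramble replicate 1 and 11.74 and 11.71 in scramble replicates 2 and 3. Its scramble values all lay inside the shRNA range, and the log2 difference was -0.019 (95% interval -0.26 to 0.22), whose sign turned in several other fits. E2f6, the repressor found in a Polycomb complex, was at 10.13, 10.29 and 10.34 in the shRNA arrays, against 10.29 in scramble replicate 1 and 9.64 and 9.80 in scramble replicates 2 and 3. Scramble replicate 1 lay inside the shRNA range, and the log2 difference was 0.34 (95% interval -0.08 to 0.76), or 0.53 without scramble replicate 1 and 0.29 without scramble replicate 3.

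Scramble replicate 1 was above both other scramble arrays for all 10 genes, against 34% of all genes. For 6 of the 10 it was inside or above the shRNA range, for 3 it was below that range but near it, and E2f5 was the exception. Scramble replicate 3 was the lowest scramble array for 9 of the 10, E2f6 being the exception. The range over the scramble arrays was more than 3 times that over the shRNA arrays for 8 of the 10, the exceptions being E2f4 and E2f5. For these counts other than the first, the share over all genes was not computed. The SD of Mybl2 in the scramble arrays was larger than that of 99.9% of genes, and that of E2f5 larger than that of 13.8%. Without scramble replicate 1, limma still called 0 of the 10 genes (0% of all genes). At an unadjusted p under 0.05, 9 of the 10 were then higher, against 11.4% of all genes, and E2f4 was not. In that fit the adjusted p was 0.0614 for Mybl2, E2f7 and E2f8, and 0.122 for E2f5. The same 0.0614 was given to other genes too, among them Tfdp1, Tfdp2, Mcm7 and Plk1. Scramble replicate 1 was set apart after its values were seen, so that these p-values are a description.

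**Figure D3:**
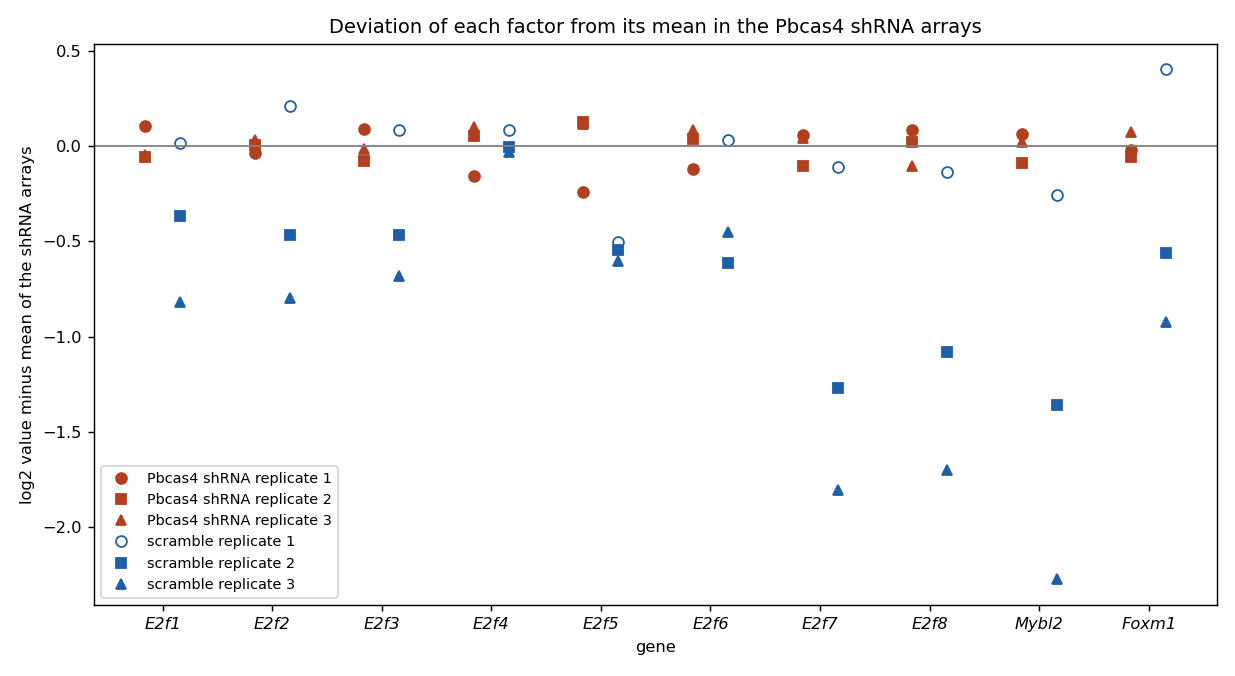
Each gene's log2 value minus its mean in the 3 Pbcas4 shRNA arrays (y axis), by gene (x axis) and array, with shRNA arrays in red at the left and scramble arrays in blue at the right of each gene, and scramble replicate 1 as an open circle. Scramble replicate 3 lies at -2.27 for Mybl2 and -0.028 for E2f4, and scramble replicate 1 at -0.50 for E2f5 and 0.40 for Foxm1.

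The replicate numbers are shared between the constructs, and between arrays of the same number the difference, shRNA minus scramble, was 0.32, 1.27 and 2.30 for Mybl2, 0.17, 1.17 and 1.85 for E2f7 and 0.22, 1.10 and 1.60 for E2f8, for the numbers 1, 2 and 3. The arrays numbered 1 thus differed least for these genes. For E2f5 these differences were 0.26, 0.67 and 0.72. For Foxm1 they were -0.42, 0.50 and 1.00, with the shRNA array the lower one for number 1. All 3 were positive for 6 of the 10 genes (E2f1, E2f3, E2f5, E2f7, E2f8 and Mybl2), against 19.4% of all genes. For E2f3 the first was 0.0035.

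The values of E2f1, E2f2, E2f3, E2f7, E2f8, Mybl2 and Foxm1 moved together over the 6 arrays. Across the arrays, which share the constructs, Pearson's r was 0.90 or more for all 21 pairs of these 7 genes, as a description. The 7 are the genes left when E2f4, E2f5 and E2f6 are taken out, so that this lower limit follows in part from the choice of genes. The r of E2f6 with these 7 genes ran from 0.74 (E2f1) to 0.88 (E2f7). The highest r of E2f4 with any other of the 10 was 0.40, and that of E2f5 was 0.73. Among all other genes, the one most like E2f7 was Trip13, an ATPase of the spindle checkpoint (r = 0.9996), followed by Sec23b and by Cdt1, a licensing factor of replication. The genes most like E2f8 were Lmnb2, Blm and Fanci, of which Blm encodes a helicase and Fanci a protein of DNA crosslink repair. Those most like Mybl2 were Mreg, Topbp1 and Fanci, and those most like E2f3 were Zgrf1 and the kinetochore genes Zw10 and Spc24. For E2f1 they were Ap1s2, Mcm4 and Atxn7l3, for E2f2 Man1a2, Actl6a and Taf6, for E2f6 Ercc6l2, Zfp280d and Prpf19, and for Foxm1 Brk1, Setd1b and Ppa1. E2f5 had another set, Fam118a, Rab32 and Hsdl1 (r = 0.994 to 0.991), and so did E2f4 with Slc30a5, Parp11 and Cox5b. Over 6 arrays such values are easily reached: r was over 0.9 with 1411 of 19928 genes for E2f7, 461 for E2f5 and 135 for E2f4.

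Among the DP partners and the pocket proteins, the genes for the DP partners had the widest differences. Tfdp1, which encodes DP1, was at 12.90, 12.88 and 12.89 in the shRNA arrays, against 12.57 in scramble replicate 1 and 12.11 and 12.10 in scramble replicates 2 and 3. Scramble replicate 1 lay between the shRNA arrays and the other scramble arrays, and the constructs did not overlap (log2 difference 0.63, standard error 0.14). Tfdp2, which encodes DP2, had the same order, at 10.49, 10.60 and 10.41 in the shRNA arrays and at 10.09, 9.66 and 9.72 in scramble replicates 1, 2 and 3 (log2 difference 0.68, standard error 0.13, limma adjusted p = 0.348). Among the pocket proteins, Rb1 had a log2 difference of -0.016 and Rbl2 of 0.078. Rbl1, which encodes p107 and is an E2F target, had one of 0.51, with arrays that overlapped. Of these 5 genes, 3 were higher at an unadjusted p under 0.05 (6.22% of all genes), 0 were called, and the median was 0.51. In the MuvB core, 4 of 5 genes had a higher mean and 0 passed at either threshold. Lin9, its scaffold, had a log2 difference of 0.65 (standard error 0.28), Lin52 of 0.34 and Lin37 of -0.15.

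The 9 genes of the E2F6 Polycomb complex showed no common direction, with 5 higher and 4 lower by mean, 0 past an unadjusted p of 0.05 and a median log2 difference of 0.088. Pcgf6, its defining Polycomb subunit, had a difference of -0.0089, Mga one of 0.31 and Max one of 0.12. The highest was L3mbtl2 (0.52) and the lowest Yaf2 (-0.19). Germline genes that E2F6 keeps silent in mouse somatic cells had a median of 0.0095, with 6 of 6 between -0.083 (Mael) and 0.047 (Slc25a31). Stag3 and Smc1b, subunits of meiotic cohesin, had differences of -0.066 and 0.015. All 6 had overlapping arrays, and for 0 of them was scramble replicate 1 above both other scramble arrays. Their mean level was 6.27 to 6.51 in the shRNA arrays and 6.32 to 6.45 in the scramble arrays, below the array medians of 7.75 to 7.86. At such low signal a small difference says little about whether these genes changed. Of the adaptors of ubiquitin ligases that act on these factors, Skp2 (log2 difference 0.84, standard error 0.26) and Ccnf (0.77, standard error 0.35) had higher means and Fzr1 a difference of -0.12. Both other MYB genes had higher means, Myb by 0.59 and Mybl1 by 0.37.

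**Figure D4:**
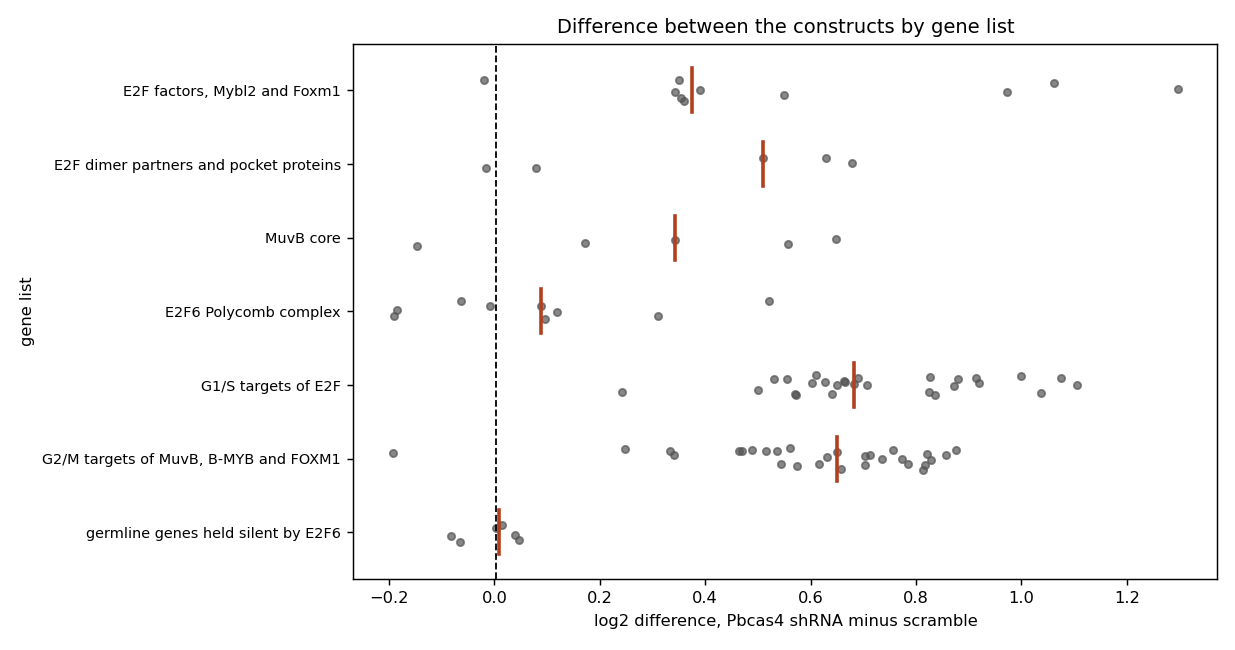
Log2 difference between the constructs (x axis, Pbcas4 shRNA minus scramble) of the measured genes of each list (y axis). Points are genes, red bars are list medians and the dashed line is the median of all genes (0.0031). The medians of the G1/S and G2/M targets are 0.68 and 0.65, and that of the germline genes is 0.0095.

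Genes known as targets of these factors were also mostly higher by mean. All 27 measured G1/S targets of E2F were above the scramble mean in the shRNA arrays, and the median of their log2 differences was 0.68. Of these, 5 were higher at an unadjusted p under 0.05, against 6.22% of all genes, and 0 were called. The shRNA arrays lay wholly above the scramble arrays for 4, against 9.13% of all genes. Ccne1 and Ccne2, the E cyclins, had differences of 0.61 and 0.71, and Cdc6, which loads the replicative helicase, one of 0.64. The highest was Rrm2, a subunit of ribonucleotide reductase (1.11, standard error 0.56), and the lowest Ung, a uracil glycosylase (0.24). Scramble replicate 1 was above both other scramble arrays for all 27. Of 29 measured G2/M targets of MuvB, B-MYB and FOXM1, 28 had a higher mean, with a median of 0.65. At an unadjusted p under 0.05, 11 were higher and 1 was lower, against 6.22% and 5.46% of all genes, and 0 were called. The shRNA arrays lay wholly above the scramble arrays for 11 and wholly below them for 1, against 9.13% and 7.63% of all genes. Ccnb2 and Ccna2, cyclins of mitosis, had differences of 0.33 and 0.46, and Cdk1, their kinase, one of 0.49. The highest was Ttk, a spindle checkpoint kinase (0.88, standard error 0.34). The lowest was Racgap1, a regulator of cytokinesis, which was at 13.03, 12.97 and 13.02 in the shRNA arrays and at 13.19, 13.15 and 13.26 in scramble replicates 1, 2 and 3 (log2 difference -0.19, standard error 0.080). Without scramble replicate 3 the medians were 0.40 for G1/S targets and 0.41 for G2/M targets, and without scramble replicate 1 they were 1.05 and 0.98. Every list shares its arrays with the transcription factors and is no independent sample.

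Markers of other cells and of the line itself were set beside these differences. The mean level of 8 fibroblast markers was 7.32 to 7.44 in the shRNA arrays and 7.10 to 7.39 in the scramble arrays, that of 8 macrophage markers 6.38 to 6.51 and 6.38 to 6.47, that of 7 epithelial markers 7.46 to 7.61 and 7.45 to 7.61, and that of 6 glial markers 7.20 to 7.43 and 7.29 to 7.43. These ranges overlapped, and Pdgfra was the 1 marker of these 4 lists at an unadjusted p under 0.05 (log2 difference 0.55). Of 13 neuroblastoma markers, 2 lay higher and 11 lower by mean with the shRNA, whereas 51% of all genes lay higher. At an unadjusted p under 0.05, 5 were lower (Th, Dbh, Chgb, Stmn2 and Gap43), against 5.46% of all genes. Of these 5, Dbh and Gap43 had overlapping arrays. The markers had a median log2 difference of -0.23 and a mean level of 11.49 to 11.66 in the shRNA arrays and 11.86 to 12.12 in the scramble arrays. For these markers scramble replicate 1 (11.99) lay between scramble replicates 3 and 2. Their part in the differences of the transcription factors was not tested.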

How the data were processed

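Expression was measured on 6 Affymetrix Mouse Gene 1.0 ST arrays, 3 for each construct, from separate transfections according to the study's design text. The authors deposited log2 values, 1 for each probe, that were already normalized. How background, summarization and normalization were handled is not given in the sources used here. Of 35556 probes, 21789 carried 1 gene symbol, 1621 several and 12146 none. The number of arrays limits the precision.

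The constructs were set against each other by limma 3.58.1 (R 4.3.3), using its lmFit and eBayes functions and two-sided p-values on all probes, adjusted by Benjamini-Hochberg across the 35556 probes. Limma and an adjusted p under 0.05 come from the study's methods. Their criterion of a variance between conditions above 0.5 was read as a log2 difference over 0.5 in size. It was applied after the adjustment, and no filter of probes on variance before it was run. The fit was checked on simulated data. Figures were drawn with matplotlib 3.10.9.

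The transcription factors and the 13 gene lists, in which 128 of 135 symbols were measured, were chosen with earlier results of these data known. All 10 factors are named. Of each list other than the cell marker lists, the first 3 measured genes in the written order and those with the lowest and highest difference are named. The other named genes were chosen after their values were seen. Lists were described by counts and medians, with no set test. Deviations of arrays with the same replicate number correlated at 0.291, 0.137 and 0.103 over all probes. Those of arrays with different numbers correlated at -0.255 to 0.199. Among the fits, samples were treated as paired by the number in their labels only in an alternative, with that number as a block. Differences between arrays of the same number are otherwise a description, because the labels do not say that these arrays belong together. Alternatives were quantile normalization, median centring, a filter on dim probes, a trended and robust variance, array weights, averaging the probes of a gene and leaving out arrays.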

Additional observations from a re-analysis of the deposited data

How the results depend on the processing

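Quantile normalization, median centring, the filter on dim probes (under the 25th percentile), the trended and robust variance and averaging the probes of a gene called 0 of the 10 transcription factors, as did leaving out any array in turn (0 to 0) or both arrays numbered 1. The number with a higher mean was 9 or 10 throughout, and E2f4 alone changed sign, to 0.0072 when centred on the array median, 0.077 with array weights, 0.058 without shRNA replicate 1, 0.015 without scramble replicate 1 (-0.069 to 0.058 over the arrays left out in turn) and 0.093 without both arrays numbered 1. With the replicate number as a block, 1 probe and 0 of the transcription factors were called, and the adjusted p was 0.289 for Mybl2 and 0.269 for E2f5; no other call changed under the block. With array weights, 5 of the 10 (E2f5, E2f6, E2f7, E2f8 and Mybl2, adjusted p = 0.0172 to 0.0291) and 1980 of the 35556 probes were called. An alternative added after the data were seen dropped the size criterion. Array weights then gave 6 of the 10, E2f3 being the sixth, and 4230 of the 35556 probes. In that fit shRNA replicate 3 weighed 5.32 and scramble replicate 2 weighed 2.39, against 0.353 for scramble replicate 1, and the cause was not tested. An unadjusted p under 0.05 with the size criterion gave 4 of the 10 and 1133 of the 35556 probes. The difference of Mybl2 was 0.81 to 1.82 over the 14 alternatives, that of E2f5 0.49 to 0.69 and that of Foxm1 0.078 to 0.75. With 3 arrays a construct, precision is limited by the spread of the scramble arrays for every factor but E2f4 and E2f5.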
